A study of Mus musculus with 10 samples.

Results

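The sialyltransferase genes described here were 9 loci of the deposited liver table, picked by symbol out of 23847: St3gal1 to St3gal6, St6gal1, St6galnac4 and St6galnac6. St3gal2 had already been seen higher in KO when they were picked, so the KO and WT values of all 9 are a description with no test. Of the 9, 8 passed a filter of a mean of at least 1 FPKM over all libraries, a read density per kilobase of transcript corrected for library size, and St6galnac4 did not.

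RNA was sequenced from mouse livers 40 h after partial hepatectomy, an operation that takes out most liver lobes and makes the hepatocytes that are left divide. The KO group held 3 liver libraries of genotype Arid1a Fl/Fl; Alb-cre, and the WT group held 3 liver libraries of genotype Arid1a Fl/Fl, so both groups carried the floxed allele. Arid1a is a SWI/SNF chromatin remodeller gene. Cre under the albumin promoter is known to act in hepatocytes and in bile duct cells of the same origin, and is not meant to act in the blood, endothelial and stellate cells of the liver. All animals were at postnatal day 90 on a mixed C57/B6 and 129 background, and 4 samples from before hepatectomy were not analysed here. The labels do not say that each library came from a separate mouse, so a p-value here covers only the spread among these libraries, which may be technical.

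Sialyltransferases sit in the Golgi and move sialic acid from its activated form, CMP-sialic acid, onto the ends of glycan chains. The ST3GAL and ST6GAL enzymes cap galactose in different linkages, and the ST6GALNAC enzymes add sialic acid to N-acetylgalactosamine. In liver they finish the glycans of secreted plasma proteins, and the asialoglycoprotein receptor of hepatocytes clears proteins whose galactose is left uncapped.

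The promoters of St6gal1, St3gal3 and St3gal4 are shown first because the KO libraries of these genes all lay below the WT libraries. The sequences are the 250 bases before each start in RefSeq GRCm38.p6, written 5′ to 3′ on the gene's strand. RefSeq lists 3 starts for St6gal1. Capitals mark 2 motifs on either strand: the CCAAT box (CCAAT or ATTGG), the binding site of NF-Y, and the GC box (GGGCGG or CCGCCC), the binding site of Sp1-type factors.
St6gal1 chr16:23224490-23224739, plus strand: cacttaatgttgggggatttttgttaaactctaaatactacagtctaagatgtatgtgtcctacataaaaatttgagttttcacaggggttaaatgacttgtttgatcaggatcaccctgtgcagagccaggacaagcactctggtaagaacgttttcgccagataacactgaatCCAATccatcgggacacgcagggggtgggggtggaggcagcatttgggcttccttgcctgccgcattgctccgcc
St6gal1 chr16:23225771-23226020, plus strand: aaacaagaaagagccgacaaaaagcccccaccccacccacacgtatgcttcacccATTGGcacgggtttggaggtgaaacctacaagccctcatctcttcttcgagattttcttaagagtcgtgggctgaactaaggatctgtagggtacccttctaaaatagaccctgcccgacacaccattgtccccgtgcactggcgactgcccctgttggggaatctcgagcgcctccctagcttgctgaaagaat
St6gal1 chr16:23290220-23290469, plus strand: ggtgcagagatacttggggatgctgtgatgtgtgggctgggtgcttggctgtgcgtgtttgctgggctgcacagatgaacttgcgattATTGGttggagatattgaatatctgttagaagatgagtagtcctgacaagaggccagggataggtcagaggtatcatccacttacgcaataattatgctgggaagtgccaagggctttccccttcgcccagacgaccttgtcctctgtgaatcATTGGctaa
St3gal3 chr4:118134947-118135196, minus strand: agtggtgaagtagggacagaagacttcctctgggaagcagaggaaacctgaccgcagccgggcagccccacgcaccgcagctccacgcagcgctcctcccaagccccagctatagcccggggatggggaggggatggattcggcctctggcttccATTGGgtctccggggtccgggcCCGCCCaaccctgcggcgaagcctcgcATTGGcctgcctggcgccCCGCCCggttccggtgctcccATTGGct
St3gal4 chr9:35116865-35117114, minus strand: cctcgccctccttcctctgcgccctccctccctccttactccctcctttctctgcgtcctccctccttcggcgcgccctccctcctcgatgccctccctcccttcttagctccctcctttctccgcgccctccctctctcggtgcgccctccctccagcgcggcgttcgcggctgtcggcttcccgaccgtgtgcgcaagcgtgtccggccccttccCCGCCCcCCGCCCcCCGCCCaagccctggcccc

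The St3gal3 promoter held 3 CCAAT boxes and 2 GC boxes, and the St3gal4 promoter held 3 GC boxes and no CCAAT box. The 3 promoters of St6gal1 held 1, 1 and 2 CCAAT boxes and no GC box. No matches overlapped in these 5 sequences. Over all 32851 RefSeq promoters of this length, 33.8% held a CCAAT box and 32.7% a GC box. The GC content was 68.4% for St3gal3 and 72.8% for St3gal4, against 47.2%, 52.8% and 49.6% at the St6gal1 starts in the order shown and a median of 52.4% over all promoters. The HNF1 half-site (GTTAAT or ATTAAC), present in 6.43% of all promoters, was not found in any of the 10 promoter entries of the 7 members listed. These matches describe letters in a window and were not tested as binding sites. Compared in the sense orientation only, the transcripts of the 9 genes shared little or no sequence with those of other genes. Overlap with transcripts of the opposite strand was not covered. St3gal2, St3gal3, St3gal4, St3gal6, St6gal1, St6galnac4 and St6galnac6 shared no 50-base window with a transcript of another GENCODE gene, and St3gal1 shared 0.967% and St3gal5 0.451% of their windows.

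FPKM summed to between 409142 and 495209 per library. Absolute depth is unknown. Judged by loci worth only a few reads, KO replicate 3 had 0.833 and WT replicate 3 had 1.20 times the depth of WT replicate 1, and these were the extremes. Arid1a itself was 4.41, 5.57 and 6.15 FPKM in KO livers, against 8.68, 8.45 and 8.49 FPKM in WT livers. All KO libraries lay below all WT libraries (log2 difference -0.59, SE 0.15), and p was 0.1 in an exact permutation test (two-sided), which cannot give less with 3 libraries against 3. Limma gave an adjusted p of 0.207. Across 10956 loci tested with limma, 2 were called higher and 11 lower in KO at an adjusted p of 0.05. The median log2 difference of all tested genes was 0.15, so differences are also given relative to it.

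KO replicate 2 stood apart in cell cycle markers. The 8 mitosis genes summed to 240, 10.4 and 411 FPKM in KO livers, against 13.3, 6.71 and 33.9 FPKM in WT livers. That put KO replicate 2 inside the range of the WT livers. Without this library the log2 difference was 1.29 for St3gal2, -0.70 for St3gal3 and -0.69 for St3gal4. The difference moved more for St6gal1 (from -0.997 to -0.74), St3gal6 (from -0.74 to -0.49) and St3gal5 (from -0.03 to -0.38). The part of cell cycle entry in any member's difference was not tested. The hepatocyte markers summed to between 30190 and 38926 FPKM in KO and between 32294 and 38446 FPKM in WT. For every one of the 10 marker lists, 9 of cell types and 1 of mitosis, the KO and WT sums overlapped. A sum follows its most abundant marker, and single markers, named after their values were seen, did not all overlap. The KO libraries lay above all WT libraries for the macrophage gene Marco (11.8 to 27.6 FPKM in KO, against 5.11 to 9.84 FPKM in WT) and the stellate cell gene Reln (14.6 to 21.9 FPKM in KO, against 8.88 to 10.5 FPKM in WT). The endothelial gene Cdh5 (7.60 to 8.53 FPKM in KO, against 4.94 to 7.14 FPKM in WT) and both loci of the alpha-globin gene Hba-a1 (0.114 to 3.67 FPKM in KO, against at most 0.0321 FPKM in WT) did the same. The bile duct gene Sox9 (0.0621 to 0.371 FPKM in KO, against 0.744 to 1.83 FPKM in WT) and the lymphocyte gene Nkg7 (at most 0.134 FPKM in KO, against 0.291 to 0.602 FPKM in WT) lay below. All other markers found overlapped between the groups. By group mean some went the other way, such as Lrat against Reln, Epcam against Sox9 and Cd3e against Nkg7. Among all tested genes, the KO libraries lay above all WT libraries for 16.7% and below for 5.44%. Marker overlap was judged on FPKM as deposited and was not recounted after any rescaling. Sox9 and Nkg7 were under the filter. The Hba-a1 loci averaged 0.78 and 1.05 FPKM over the 6 libraries, where few reads lie behind a value. No shift in a cell type is read from these markers. The part of these cell types in any member's difference was not tested. B cell and T cell markers stayed at sums of at most 1.66 FPKM in any library, and no marker found was at 0 in all 6 libraries. In whole liver, fewer cells of a type and less RNA per cell cannot be told apart.

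St3gal5 was the most abundant member in all 6 libraries, and the order below it differed between the groups. In KO livers St3gal1 came second by mean at 33.3 ± 3.43 FPKM, followed by St6gal1 at 26.5 ± 11.5 FPKM (SD, n = 3), with overlapping ranges. In WT livers St6gal1 came second at 51.1 ± 6.20 FPKM (SD, n = 3), followed by St3gal1 and St3gal4. St3gal1 and St3gal4 also overlapped in WT, at 30.5 ± 5.49 and 28.7 ± 4.05 FPKM, so their order there is not beyond the spread. St6galnac6 was sixth in every library. St3gal2 was seventh in every KO library and eighth in every WT library, where St3gal6 was seventh. The 9 members together summed to 194 ± 41.3 FPKM in KO and 230 ± 27.4 FPKM in WT (SD, n = 3 each), with overlapping libraries.

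**Figure D1:**
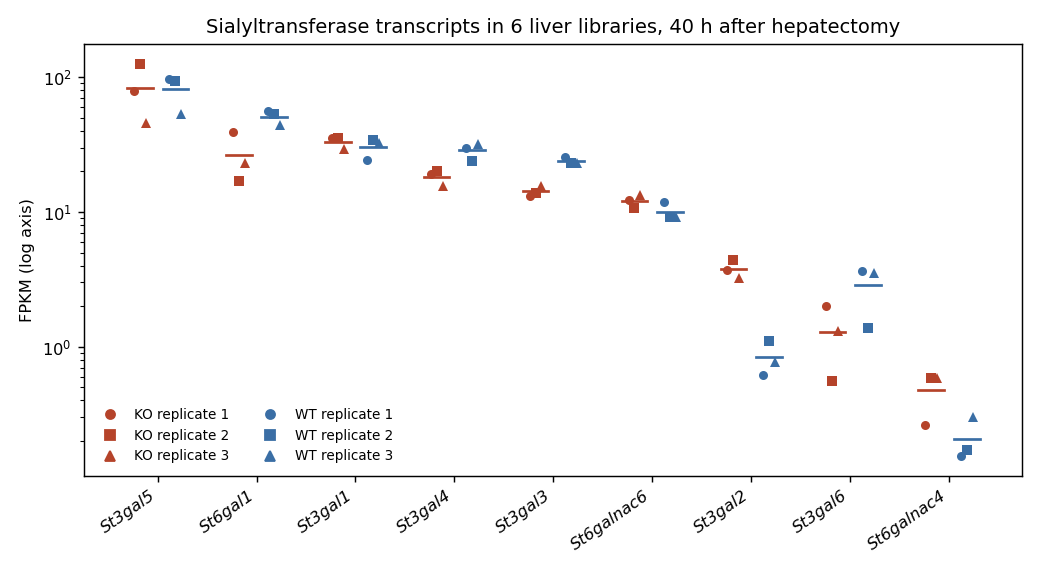
FPKM on a log axis for each of the 9 sialyltransferase genes, ordered by mean; points are single libraries (3 KO, left, and 3 WT, right, of each gene) and bars are group means. The KO points of St3gal2 (3.23 to 4.41 FPKM) all lie above the WT points (0.622 to 1.11 FPKM), and those of St6gal1, St3gal4 and St3gal3 all lie below.

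St3gal1 and St3gal2 encode the enzymes that cap the galactose of the T antigen disaccharide, on O-glycans and, mainly for St3gal2, on gangliosides. St3gal2 (chromosome 8, 110919865 to 110972497, mm10) was 3.69, 4.41 and 3.23 FPKM in KO livers, against 0.622, 1.11 and 0.774 FPKM in WT livers. The lowest KO value lay well above the highest WT value. The KO mean was 3.78 ± 0.596 and the WT mean 0.834 ± 0.248 FPKM (SD, n = 3 each), a ratio of 4.53. The difference of log2(FPKM + 1) was 1.38 (SE 0.18), or 1.24 relative to all genes. St3gal2 was chosen for this difference. Because its WT level is under 1 FPKM, the added 1 compresses the difference, which was 2.08 with a pseudocount of 0.1. Its neighbours in the table did not separate the groups. Fuk, on one side, was 2.47, 3.07 and 2.08 FPKM in KO, against 1.59, 2.42 and 2.30 FPKM in WT. Ddx19a, 2493 bases away on the other side, was 9.92, 10.2 and 8.95 FPKM in KO, against 9.52, 7.66 and 8.15 FPKM in WT.

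St3gal1 (chromosome 15, 67102875 to 67176882) was far more abundant than its relative, with 35.2, 35.3 and 29.3 FPKM in KO livers and 24.2, 34.5 and 32.8 FPKM in WT livers. The groups overlapped. The log2 difference was 0.13 (SE 0.19), or -0.01 relative to all genes, and turned to -0.02 after median-of-ratios rescaling, to -0.03 after quantile normalization and to -0.02 without WT replicate 1. Within each library St3gal2 made up 9.49%, 11.1% and 9.93% of the summed FPKM of both genes in KO livers, against 2.50%, 3.11% and 2.31% in WT livers. This share does not depend on the scaling of a library. The sum of both genes overlapped between the groups, at 38.9, 39.7 and 32.6 FPKM in KO and 24.8, 35.6 and 33.5 FPKM in WT.

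St6gal1, St3gal3, St3gal4 and St3gal6 encode enzymes that cap the N-acetyllactosamine ends of N-glycans, and St6gal1 is the main such enzyme of hepatocytes. St6gal1 (chromosome 16, 23224740 to 23360350) was 39.3, 17.1 and 23.0 FPKM in KO livers, against 56.1, 52.9 and 44.2 FPKM in WT livers. All KO libraries lay below all WT libraries, by a narrow margin for KO replicate 1. KO replicate 2, the only KO library with mitosis transcripts inside the WT range, was lowest. The log2 difference was -0.997 (SE 0.30), or -1.14 relative to all genes, and -0.74 without KO replicate 2. St6gal1 took 19.3%, 7.48% and 15.5% of the summed FPKM of the 9 members in KO, against 22.5%, 22.0% and 22.2% in WT. Its spread was wider in KO, with a coefficient of variation of 43.4%, against 12.1% in WT.

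St3gal3 (chromosome 4, 117932153 to 118134914) was 13.1, 13.9 and 15.6 FPKM in KO livers, against 25.6, 23.2 and 22.9 FPKM in WT livers. It had the smallest spread of all members in both groups, a coefficient of variation of 8.82% in KO and 6.22% in WT, and the groups were clearly apart. The log2 difference was -0.71 (SE 0.14), or -0.86 relative to all genes. St3gal4 (chromosome 9, 35046579 to 35116810), whose enzyme in mice keeps von Willebrand factor and platelets in circulation, was 19.1, 19.98 and 15.7 FPKM in KO livers, against 30.1, 24.1 and 31.8 FPKM in WT livers. Here too every KO library was below every WT library. The log2 difference was -0.62 (SE 0.17), or -0.77 relative to all genes. The start of the St3gal4 locus overlaps 4930581F22Rik, which was 3.86, 3.01 and 1.45 FPKM in KO and 4.39, 4.30 and 4.97 FPKM in WT. The strand setting of the libraries is not known here, so reads in the overlap cannot be told apart. The same holds for 4933431G14Rik, which lies within the St3gal5 locus and was at most 5.29 FPKM in any library.

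St3gal6 (chromosome 16, 58470541 to 58523312), whose enzyme also helps to make selectin ligands, was 1.999, 0.557 and 1.30 FPKM in KO livers, against 3.63, 1.38 and 3.54 FPKM in WT livers. Replicate 2 was the lowest of each group, and KO replicate 1 lay above WT replicate 2, so the groups overlapped. The log2 difference was -0.74 (SE 0.35), but -0.49 without KO replicate 2 and -1.13 with a pseudocount of 0.1. Summed within each library, St6gal1, St3gal3, St3gal4 and St3gal6 came to 73.5, 51.6 and 55.5 FPKM in KO livers, against 115, 102 and 102 FPKM in WT livers. The KO sum was 0.565 of the WT sum by means. The ratio of St6gal1 to the other members of this group was 1.149, 0.497 and 0.705 in KO and 0.946, 1.09 and 0.757 in WT, so this ratio overlapped between the genotypes.

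**Figure D2:**
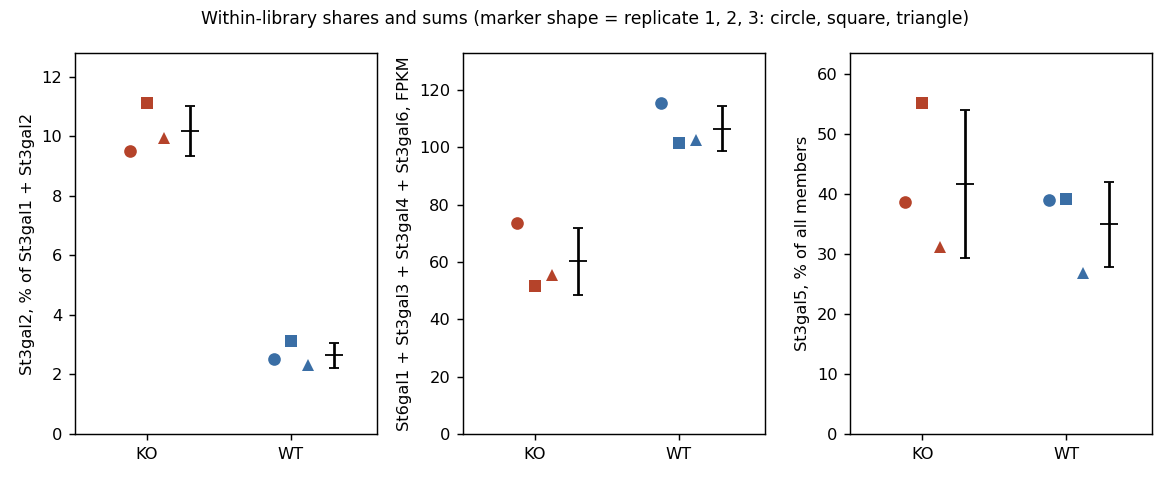
Within-library values in KO (left) and WT (right) of St3gal2 as a percent of St3gal1 plus St3gal2, of the summed FPKM of St6gal1, St3gal3, St3gal4 and St3gal6, and of St3gal5 as a percent of all 9 members; points are libraries, and bars are mean and SD (n = 3 each). The first share is 9.49% to 11.1% in KO and 2.31% to 3.11% in WT, the sum is 51.6 to 73.5 FPKM in KO and 102 to 115 FPKM in WT, and the St3gal5 share overlaps.

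St3gal5 encodes GM3 synthase, which adds the first sialic acid to lactosylceramide and so begins the ganglioside series. St3gal5 (chromosome 6, 72097613 to 72154570) was 78.7, 126 and 46.0 FPKM in KO livers, against 97.6, 93.9 and 53.1 FPKM in WT livers. The groups overlapped fully, and replicate 3 was the lowest in each. The log2 difference of -0.03 (SE 0.41) had a sign that depended on single libraries, from -0.38 without KO replicate 2 to 0.34 without KO replicate 3. St3gal5 had a coefficient of variation of 48.2% in KO and 30.3% in WT. It took between 31.1% and 55.2% of the summed FPKM of the members in KO and between 26.7% and 39.1% in WT.

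St6galnac4 and St6galnac6 lie head to tail on chromosome 2, with 12 bases between their loci. St6galnac6, whose enzyme adds sialic acid to gangliosides, was 12.3, 10.8 and 13.5 FPKM in KO livers, against 11.9, 9.17 and 9.16 FPKM in WT livers. Only WT replicate 1 reached into the KO range, and the log2 difference was 0.25 (SE 0.16), or 0.11 relative to all genes. St6galnac4, whose enzyme adds a second sialic acid to the sialylated T antigen, was 0.261, 0.584 and 0.586 FPKM in KO livers, against 0.154, 0.172 and 0.299 FPKM in WT livers. It was the least abundant member in every library except KO replicate 2, where St3gal6 was lower, and its groups overlapped. At such levels few reads lie behind a value, and it did not enter the fit over filtered genes.

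Counted over the members, the KO libraries lay above all WT libraries for 1 of the 8 tested (St3gal2) and below for 3 (St3gal3, St3gal4 and St6gal1). Among all tested genes this held for 16.7% above and 5.44% below, and after median-of-ratios rescaling for 7.87% above and 9.9% below, with the same members on each side. Limma called 0 of the 8, where it called 0.119% of all tested genes. The median log2 difference of the 8 was -0.33, against 0.15 for all tested genes. The members were chosen with this contrast known, and St3gal2 passed the filter only through KO (WT mean 0.834 FPKM). So no more is read from these counts, the limma calls included.

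**Figure D3:**
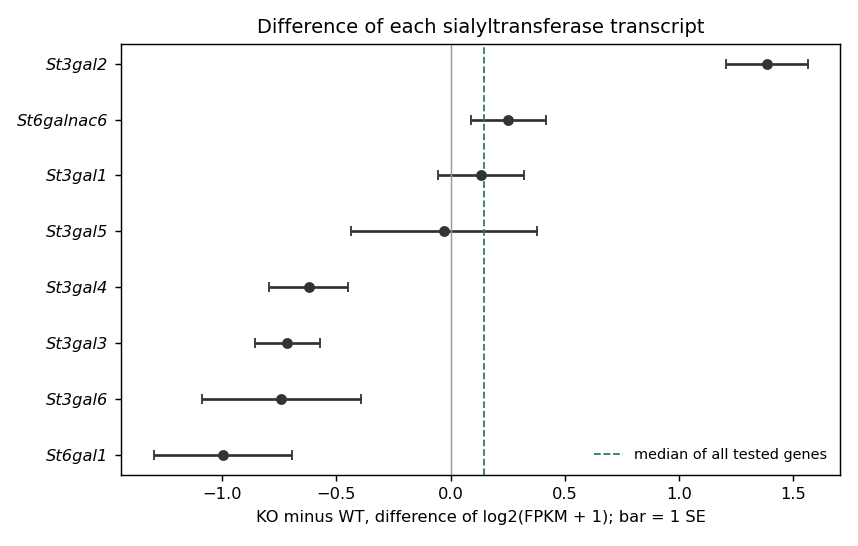
KO minus WT difference of log2(FPKM + 1) for the 8 members that passed the filter, with 1 standard error from limma (3 KO and 3 WT libraries); the dashed line is the median of all tested genes, 0.15. St3gal2 lies at 1.38, St6gal1, St3gal6, St3gal3 and St3gal4 between -0.997 and -0.62, and the others near the dashed line.

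The 11 other sialyltransferase genes listed were all under the filter, and their highest value in any library was 1.05 FPKM, for St6galnac2 in WT replicate 2, a gene singled out after its values were seen. The rest of the pathway was described by lists of 86 genes in all, these 11 included, of which 50 could be tested. None of the 50 was called higher or lower in KO by limma, with 0.128 as the smallest adjusted p, against 0.0183% of all tested genes called higher and 0.1% called lower. At an unadjusted p under 0.05, 5 were higher and 5 lower, or 20% of the 50, against 15.2% of all tested genes. Of all 10956 tested genes, 1231 were higher and 437 lower at that threshold.

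The listed genes of sialic acid supply, modification and breakdown lay on both sides of WT. Of 11 tested, all KO libraries lay above all WT libraries for 2 and below for 3. Of all tested genes, 16.7% lay above and 5.44% below (7.87% and 9.9% after rescaling). The counts for this list and those after it are on FPKM as deposited and were not repeated after rescaling. The 2 above were Nans and Cmas. The 3 below were Gne, Cmah and Casd1, and of these only Gne is a step towards CMP-sialic acid. The median log2 difference was 0.02, against 0.15 for all genes. Gne, the bifunctional enzyme that starts the route, was 42.5, 38.5 and 37.1 FPKM in KO livers, against 60.2, 47.6 and 53.6 FPKM in WT livers. Its log2 difference was -0.44 (SE 0.16, limma adjusted p = 0.302). Nans, the sialic acid synthase, was 11.3, 19.7 and 11.7 FPKM in KO, against 7.55, 4.25 and 7.03 FPKM in WT. Every KO library was above every WT library, and the log2 difference was 1.06 (SE 0.28, limma adjusted p = 0.212). Cmah, which converts CMP-Neu5Ac to CMP-Neu5Gc in mice, was 13.5, 6.51 and 12.8 FPKM in KO, against 30.7, 28.0 and 31.0 FPKM in WT. The lowest WT library was above the highest KO library, and the log2 difference was -1.43 (SE 0.27, limma adjusted p = 0.135). Cmah was called without KO replicate 2 (-1.12, adjusted p = 0.0277) and in none of the other 13 alternatives, where the adjusted p ranged from 0.0887 to 0.457.

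Cmas, Casd1, Nanp and Slc35a1 are named after their values were seen. Cmas, which activates sialic acid to CMP-sialic acid, was 26.4 ± 5.39 FPKM in KO and 18.3 ± 0.970 FPKM in WT (SD, n = 3 each), with the KO libraries above. Casd1, the sialic acid O-acetyltransferase, was 4.94 ± 0.893 FPKM in KO and 7.16 ± 1.19 FPKM in WT (SD, n = 3 each), with the KO libraries below. The phosphatase gene Nanp and the Golgi CMP-sialic acid transporter gene Slc35a1 overlapped between the groups, at 9.03 ± 2.01 and 8.21 ± 1.56 FPKM in KO and 8.79 ± 0.599 and 8.61 ± 0.954 FPKM in WT (SD, n = 3 each).

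Sialidases remove sialic acid. None of the 3 tested genes of their list (Neu1, Neu3 and Ctsa) separated the groups. Of all tested genes, 16.7% had the KO libraries above and 5.44% below, so nothing is read from this count of 3 genes. Neu1, the lysosomal sialidase, was 8.71, 20.7 and 8.55 FPKM in KO livers, against 8.81, 7.23 and 6.66 FPKM in WT livers, so KO replicate 2 alone was high. Neu3, the plasma membrane sialidase that acts on gangliosides, was 1.75 ± 0.716 FPKM in KO and 2.54 ± 0.874 FPKM in WT (SD, n = 3 each). Ctsa, the protective protein of Neu1, was 21.2 ± 1.67 FPKM in KO and 23.8 ± 4.39 FPKM in WT (SD, n = 3 each).

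In the glycolipid list of 11 tested genes, the KO libraries lay above all WT libraries for 1 and below for 1, against 16.7% and 5.44% of all genes. The median log2 difference was 0.11. The gene below was Hexa, which encodes a subunit of a lysosomal enzyme that breaks down GM2 ganglioside. Hexa was 4.67, 3.83 and 4.22 FPKM in KO livers, against 12.7, 12.3 and 8.04 FPKM in WT livers. Its log2 difference was -1.18 (SE 0.20, limma adjusted p = 0.128). Gba2, a glucosylceramidase, was 2.50 ± 0.984 FPKM in KO and 1.77 ± 0.384 FPKM in WT, and Psap, the saposin precursor and most abundant gene of the list, was 122 ± 14.6 FPKM in KO and 130 ± 7.86 FPKM in WT (SD, n = 3 each).

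**Figure D4:**
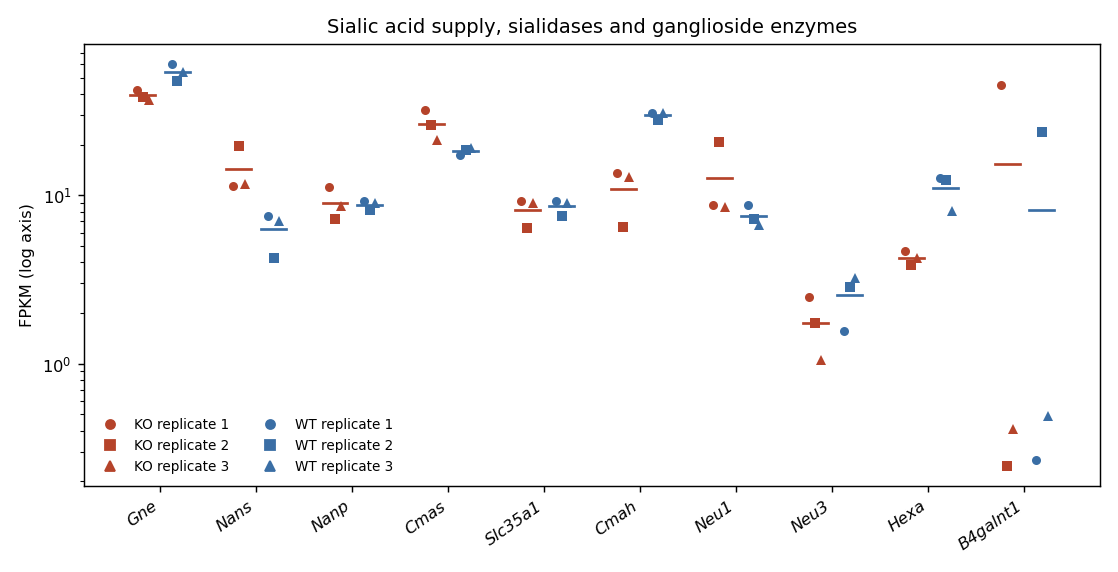
FPKM on a log axis for genes of sialic acid supply and modification (Gne to Cmah), sialidases (Neu1, Neu3) and ganglioside enzymes (Hexa, B4galnt1). Points are single libraries (KO left, WT right of each gene) and bars are group means. Cmah and Hexa lie lower in all KO libraries and Nans higher, while B4galnt1 is high in 1 library of each genotype (45.1 FPKM in KO and 23.7 FPKM in WT).

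Among 13 tested genes that build N-glycans, KO libraries lay above all WT libraries for 2 and below for 1. The share above was near the 16.7% of all genes (5.44% below). These counts hold for FPKM as deposited and were not repeated after rescaling, where 7.87% of all genes lay above and 9.9% below. The median log2 difference was 0.05. Man2a2, an alpha-mannosidase, was 5.37 ± 0.860 FPKM in KO and 7.74 ± 1.44 FPKM in WT, and Slc35a2, the UDP-galactose transporter, was 4.69 ± 0.807 FPKM in KO and 3.11 ± 0.869 FPKM in WT (SD, n = 3 each). Mgat2, a branching enzyme, was 18.3 ± 0.929 FPKM in KO and 16.2 ± 0.649 FPKM in WT, and Man2a1 was 72.7 ± 18.5 FPKM in KO and 68.8 ± 4.30 FPKM in WT (SD, n = 3 each). For Mgat2 and Man2a1 the direction depended on scaling, with log2 differences of 0.16 and 0.05 as deposited and -0.0039 and -0.08 after quantile normalization.

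For 8 O-glycan genes tested the KO libraries lay above for 2 and below for 0, against the same 16.7% and 5.44% of all genes. The median log2 difference was 0.25, against 0.15 for all genes. C1galt1c1, the chaperone of the T antigen synthase, was 9.58 ± 0.520 FPKM in KO and 7.41 ± 0.506 FPKM in WT, and the N-acetylgalactosaminyltransferase gene Galnt1 was 16.7 ± 1.92 FPKM in KO and 12.6 ± 1.66 FPKM in WT (SD, n = 3 each). After median-of-ratios rescaling their log2 differences were 0.19 and 0.23, against 0.33 and 0.38 as deposited. Galnt11, of the same family as Galnt1, was 6.17 ± 1.61 FPKM in KO and 3.76 ± 0.801 FPKM in WT (SD, n = 3 each). Among 4 receptor genes tested, Asgr1 and Asgr2, the subunits of the asialoglycoprotein receptor, were 249 ± 13.9 and 90.6 ± 4.39 FPKM in KO and 214 ± 25.5 and 76.9 ± 10.04 FPKM in WT (SD, n = 3 each). As deposited, both had all KO libraries above all WT libraries, as had 16.7% of all genes. Both missed the threshold (limma adjusted p = 0.547 for Asgr1 and 0.508 for Asgr2). Their log2 differences were 0.23 and 0.24, close to the 0.15 of all genes, and 0.069 and 0.084 after median-of-ratios rescaling. Siglece, a sialic acid binding lectin of myeloid cells, was 1.152 ± 0.638 FPKM in KO and 1.47 ± 0.793 FPKM in WT (SD, n = 3 each).

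Among the genes most like St3gal2 over the 6 libraries, by Pearson's r of log2(FPKM + 1) from 10225 candidates, were Pdgfa, Npepl1, Wwc2 and Tbrg1, with r from 0.990 to 0.996. The libraries share 2 genotypes, and these genes had every KO library above every WT library. Pdgfa, a platelet-derived growth factor gene, was 7.12, 8.14 and 5.74 FPKM in KO livers, against 1.52, 2.72 and 1.80 FPKM in WT livers. In both groups replicate 2 was highest, as for St3gal2, a likeness that picking by r favours. Tbrg1 was 26.7, 26.7 and 24.6 FPKM in KO, against 15.3, 17.0 and 14.4 FPKM in WT. For St3gal5 the closest 5 were Cpt2, D17H6S53E, Elmod3, Sirt2 and Epb4.1, with r from 0.974 to 0.983, and their groups overlapped. Cpt2, a mitochondrial enzyme of fatty acid oxidation, was 49.7, 56.1 and 41.0 FPKM in KO, against 50.8, 53.5 and 42.9 FPKM in WT. It was lowest in replicate 3 of each group, which picking by r with St3gal5 also favours. Replicate numbers were not taken as pairs.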

How the data were processed

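Transcript levels were measured in 6 liver libraries, grouped by their titles. The authors deposited FPKM per gene locus and library, per the file headers. FPKM divides by library total, so a few abundant transcripts shift all other values of a library. TopHat, edgeR, mm9 and mm10 appear in the submitters' processing notes without roles. Coordinates are on mm10. Of 23847 loci, 312 marked LOWDATA were left out, and values at the floor of 0.001 were set to 0.

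KO was compared with WT on log2(FPKM + 1) in limma 3.58.1 (R 4.3.3, two-sided, eBayes with a trend in the mean), and p-values were adjusted by Benjamini-Hochberg over 10956 loci with a mean of at least 1 FPKM. Genes under an adjusted p of 0.05 were called. The script was tested on simulated data. The members and gene lists were chosen with earlier results of these data known. Named genes are the members, Arid1a, from each list the called genes or else the 3 smallest p-values and the highest mean, and the 5 genes most correlated with St3gal2 and with the most abundant member. Of these, 2 genes are not reported here. Of 86 list genes, 1 was matched through a RefSeq synonym, and the markers Ighm and Ly6g were not found. Promoters are from RefSeq GRCm38.p6, and shared sequence was counted in 50-base windows of GENCODE M21 transcripts. Alternatives were other pseudocounts, filters and scalings, no trend, a replicate block and each library left out.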

Additional observations from a re-analysis of the deposited data

How the results depend on the processing

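The log2 difference of St3gal2 was positive in all 13 alternatives that kept it, from 1.28 to 2.08. It was 2.08 with a pseudocount of 0.1 and 1.69 with 0.5, and 1.29 to 1.49 with 1 library left out. St3gal3, St3gal4 and St6gal1 stayed below 0 in all 14 alternatives, and St3gal6 in the 13 that kept it. St3gal3 was -0.86 after median-of-ratios rescaling and -0.87 after quantile normalization. St3gal1 and St3gal5 changed sign in 3 of 14 alternatives each. The Arid1a difference ranged from -0.68 to -0.48 with 1 library left out.

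The number of genes called over the whole table varied more, and the cause was not tested. Genes called higher and lower numbered 5 and 13 with a pseudocount of 0.1, 0 and 6 with no filter, and 0 and 3 with a minimum mean of 3 FPKM. After median-of-ratios rescaling there were 0 and 13, and after quantile normalization 0 and 14. With 1 library left out, 0 to 171 were called higher and 0 to 40 lower, the highest counts without KO replicate 2. Same-numbered KO and WT libraries did not all deviate together (correlations -0.084, 0.155 and 0.164), so the numbers were not taken as pairs, and a replicate block gave 10 higher and 37 lower. The log2 difference of Man2a1 was -0.11 after median-of-ratios rescaling and -0.079 after quantile normalization, and ran from -0.12 (without KO replicate 1) to 0.25 with 1 library left out. That of Mgat2 was -0.0039 after quantile normalization, and that of Siglece ran from -0.42 to 0.058 (without WT replicate 2). FPKM without read totals gives no counting interval, which limits St6galnac4, St3gal6 and the WT values of St3gal2 most.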

Other observations

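B4galnt1, which encodes the enzyme that turns GM3, the product of GM3 synthase, into GM2, split the libraries without regard to genotype, and was picked after its values were seen. It was 45.1, 0.247 and 0.406 FPKM in KO livers, against 0.267, 23.7 and 0.491 FPKM in WT livers, so KO replicate 1 and WT replicate 2 were high and the other 4 were under 0.5 FPKM. St3gal5 was 78.7 FPKM in KO replicate 1 and 93.9 FPKM in WT replicate 2, within the range of the other libraries.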
